A study of Ocimum americanum with 4 samples.

Results

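The 4 unigenes described here have a best Swiss-Prot match to the zinc finger proteins ZAT10 or ZAT5 and were measured in leaves of *Ocimum americanum* var. *pilosum*, a basil, with and without chilling. They are Ob_15603, Ob_17139 and Ob_13389, which match ZAT10, and Ob_17132, which matches ZAT5. They are 4 of 42816 assembled unigenes, and 4 of the 15 whose best match is a ZAT protein. They were picked because their FPKM was higher in the chilling libraries than in the control libraries, so their difference between treatments is a description, and no test is given for it. FPKM is the number of fragments of a transcript scaled by its length and by the mapped fragments of the library, so levels can be compared between unigenes.

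Libraries were made from total RNA of leaves of 30-day-old plants of variety pilosum, grown at 21 °C according to the labels. The 2 control libraries came from untreated plants, and the 2 chilling libraries from plants that had been moved to 4 °C for 12 h. The study names the 2 libraries of a treatment biological replicates, and neither the study nor the labels say how many plants a library holds. Control plants stayed in otherwise equal conditions at normal temperature and replicates were harvested together, but no hour is given for either treatment, so cold and time of day cannot be told apart.

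ZAT proteins are plant transcription factors that bind DNA through C2H2 zinc fingers, and many of them carry an EAR motif, a short stretch that recruits co-repressors and silences target genes. In *Arabidopsis*, ZAT10, also known as STZ, is a repressor whose transcript accumulates under cold, drought, salt and strong light, and it acts among the early regulators around the CBF factors of the cold response. ZAT5 belongs to the same class of proteins, and its role is less well described.

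All 4 unigenes were nearly silent in control leaves and measurable after chilling, and they ended at very different levels. The ZAT10 match Ob_15603 became an abundant transcript, Ob_17139 reached a moderate level, and Ob_13389 and Ob_17132 stayed below an FPKM of 11 in every library. In each of the 4 both chilling libraries lay above both control libraries. The same order was seen in 38.3% of all 42816 unigenes, and nothing is read from it here because the unigenes were picked on this contrast. The mean control FPKM was under 1 for each of them, so they passed the minimum mean FPKM of 1 over the 4 libraries only through their chilling values.

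Ob_15603 had an FPKM of 0.52 and 0.34 in the control libraries and of 201.67 and 186.87 in the chilling libraries. Its protein match to *Arabidopsis* ZAT10 has an expectation value of 2e-66, the strongest of the 4, and its best match in the nr database is the zinc finger protein PIF1 of *Nicotiana benthamiana*. The mean FPKM went from 0.43 ± 0.127 to 194 ± 10.5 (SD, n = 2), a ratio of 452 and a difference of 7.10 on the log2(FPKM + 1) scale. That difference ranks 3 among the 33036 unigenes tested. In the control 10.05% of all unigenes had a lower mean FPKM, and after chilling 98.8% did.

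Ob_17139 had an FPKM of 0.34 in one control library and is listed at 0 in the other, against 20.05 and 20.61 after chilling. The chilling libraries were almost level with each other for this ZAT10 match, whose expectation value is 3e-38. On the log2(FPKM + 1) scale its difference was 4.204, at rank 56 of the tested unigenes. Its mean level after chilling exceeded that of 81.1% of all unigenes.

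Ob_13389 is listed at 0 in the first control library and was at an FPKM of 0.31 in the second, and it stood at 6.79 and 10.51 after chilling. It is the least even of the 4 in the chilled leaves, where the higher library held 1.55 times the FPKM of the lower. Its difference was 3.05 on the log2(FPKM + 1) scale, at rank 181. The match to ZAT10 is weaker here, at an expectation value of 2e-30.

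Ob_17132, the ZAT5 match, was the most abundant of the 4 in control leaves, at an FPKM of 1.09 and 0.59, and stood at 7.01 and 6.79 after chilling. The study lists this unigene among its ZAT10 genes, whereas its best Swiss-Prot match is ZAT5 at an expectation value of 2e-53. The mean FPKM went from 0.84 ± 0.354 to 6.90 ± 0.156 (SD, n = 2), a ratio of 8.21. Its difference of 2.12 on the log2(FPKM + 1) scale ranks 558, the smallest of the 4.

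The order of the mean levels thus changed with treatment. In the control, Ob_17132 came first with both of its libraries above those of the others, followed by Ob_15603, Ob_17139 and Ob_13389. There the ranges of Ob_15603 and Ob_17139 touched at an FPKM of 0.34, and those of Ob_17139 and Ob_13389 overlapped. After chilling, Ob_15603 lay far above Ob_17139, which in turn lay above Ob_13389 and Ob_17132 in both libraries. The ranges of Ob_13389 and Ob_17132 overlapped after chilling, both with a lowest FPKM of 6.79, so these neighbours were not separated.

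**Figure D1:**
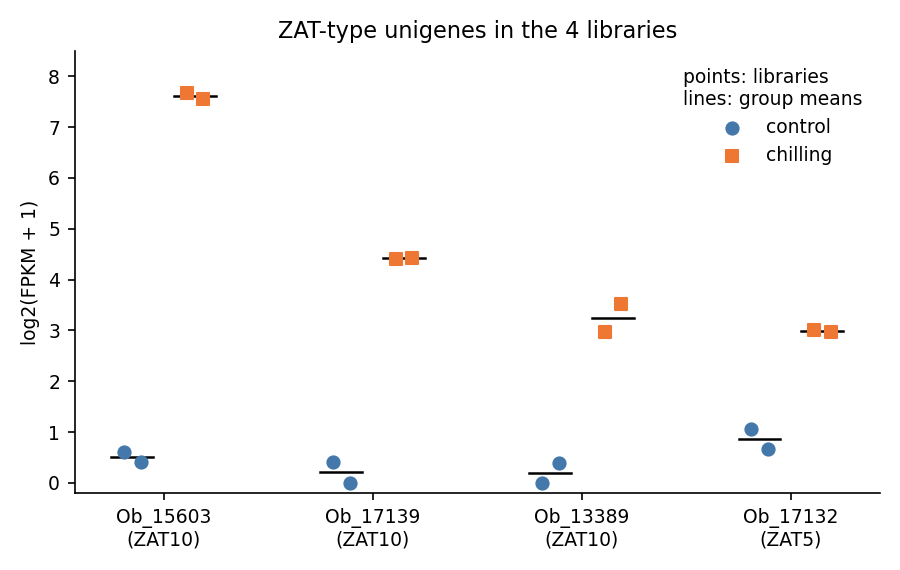
Level of the 4 ZAT-type unigenes in each library, as log2(FPKM + 1) on the vertical axis, with circles for control and squares for chilling libraries and lines at the group means (2 libraries each). The control points lie near 0, while the chilling points range from Ob_15603, at an FPKM of 201.67 and 186.87, down to Ob_13389 and Ob_17132.

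The spread between replicates differed among the unigenes. They were picked for higher values in the chilling libraries, so this spread is a description too. Each replicate difference was set beside those of all unigenes whose mean FPKM in the same treatment lay within 1.5-fold. In the chilling libraries Ob_15603 differed by 0.11 on the log2(FPKM + 1) scale, against a root mean square of 0.037 over 609 unigenes of like level, and only 0.328% of these differed as much. Ob_13389 differed by 0.56 against 0.18 over 5376 unigenes, and 0.856% of these differed as much. These 2 unigenes were therefore among the less repeatable of their level, and in opposite directions, Ob_15603 being higher in the first chilling library and Ob_13389 in the second.

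Ob_17139 and Ob_17132 were repeatable after chilling. Both differed by 0.04 between the chilling libraries on the log2(FPKM + 1) scale, and 70.0% and 81.1% of the unigenes of like level differed as much or more. In the control libraries the differences of the 4 unigenes lay between 0.18 and 0.42, below the root mean square of their level in every case. Unigenes of 1 family can share reads, and the way RSEM divided them is not visible in FPKM, so the part of shared reads in these differences was not tested.

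**Figure D2:**
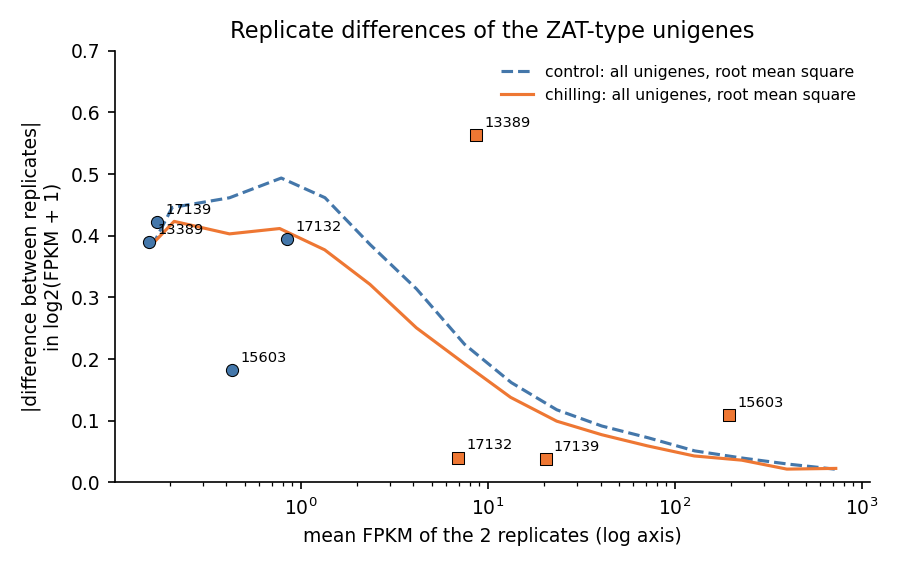
Absolute difference between the replicates of a treatment in log2(FPKM + 1) against their mean FPKM (log axis), for the 4 unigenes labelled by number, with lines for the root mean square over all unigenes of a level. The chilling squares of Ob_13389 (0.56) and Ob_15603 (0.11) lie above the chilling line, and those of Ob_17139 and Ob_17132 (both 0.04) below it.

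The annotation holds 11 further ZAT unigenes, so that 4 of the 15 match ZAT10, 4 match ZAT5, 3 match ZAT4, 2 match ZAT9, and 1 each matches ZAT1 and ZAT3. None of the 15 carries a GO term or a KEGG entry. The unigenes were compared with limma on log2(FPKM + 1), and a call, higher or lower, needs an adjusted p no larger than 0.01 together with mean FPKM values at least 2-fold apart. Over all 33036 tested unigenes 11.9% were called higher and 13.8% lower, or 25.6% in either direction. Of the 12 ZAT unigenes tested 6 were called higher, 4 of them being the unigenes picked for it, and 0 lower. Without any 1 of the 4 libraries, 3 or 4 of them were called higher.

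Among the 11 that were not picked, 8 were tested, 2 rose, 0 were called lower and 6 did not pass. The 8 had a median difference of 0.32 on the log2(FPKM + 1) scale, beside -0.0043 over all tested unigenes. The chilling libraries lay above the control libraries in 8 of the 11, beside the 38.3% of all unigenes given above, and the groups overlapped in the remaining 3.

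Both of the others that rose match ZAT5. Ob_25276 had an FPKM of 2.69 and 2.64 in the control and of 13.65 and 13.46 after chilling. It rose by 1.99 on the log2(FPKM + 1) scale (limma, adjusted p = 1.1e-05), lies just below Ob_17132 in size, and was called in all 11 alternative settings. Ob_16640 had an FPKM of 2.46 and 1.74 in the control and of 5.54 and 3.96 after chilling. Its rise of 0.89 on that scale (limma, adjusted p = 0.0092) was called in only 4 of the 11 settings, and it was lost when any 1 of the 4 libraries was left out, with a largest adjusted p of 0.117. The fourth ZAT5 match, Ob_16641, was at an FPKM of 2.08 and 2.22 in the control and of 2.12 and 2.96 after chilling, which overlap.

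The last ZAT10 match, Ob_05185, is listed at 0 and at an FPKM of 0.34 in the control, and was at 2.11 and 1.04 after chilling. It was too low to be tested, as were Ob_04342, the ZAT3 match, and Ob_04348, a ZAT9 match. Ob_04342 was at an FPKM of 0.27 in both control libraries and at 1.10 and 1.89 after chilling, and Ob_04348 at 0.32 in both control libraries and at 1.32 and 0.97 after chilling. In all 3 the chilling libraries were the higher ones, at levels where few reads decide a value.

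The ZAT1, ZAT4 and ZAT9 matches that could be tested did not pass. Their differences ranged from 0.02 in Ob_04501, a ZAT4 match with overlapping libraries, to 0.57 in Ob_01461, another ZAT4 match. Ob_01461 had an FPKM of 1.80 and 0.89 in the control and of 2.44 and 2.41 after chilling. Between them lay Ob_14410 (ZAT4), Ob_02819 (ZAT1) and Ob_15725 (ZAT9), each under an FPKM of 3.1 in every library.

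Summed over the 15 unigenes, the FPKM of the family was 17.36 and 14.87 in the control libraries and 270.72 and 258.48 after chilling. Most of the sum after chilling is a single unigene. Ob_15603 held 2.995% and 2.29% of the sum in the control and 74.5% and 72.3% after chilling, and the 4 picked unigenes together held 87.0% in both chilling libraries. The other 11 went from a summed FPKM of 15.41 and 13.63 to 35.2 and 33.7. In the control 9 and 6 of the 15 had an FPKM of at least 1, against 15 and 14 after chilling.

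**Figure D3:**
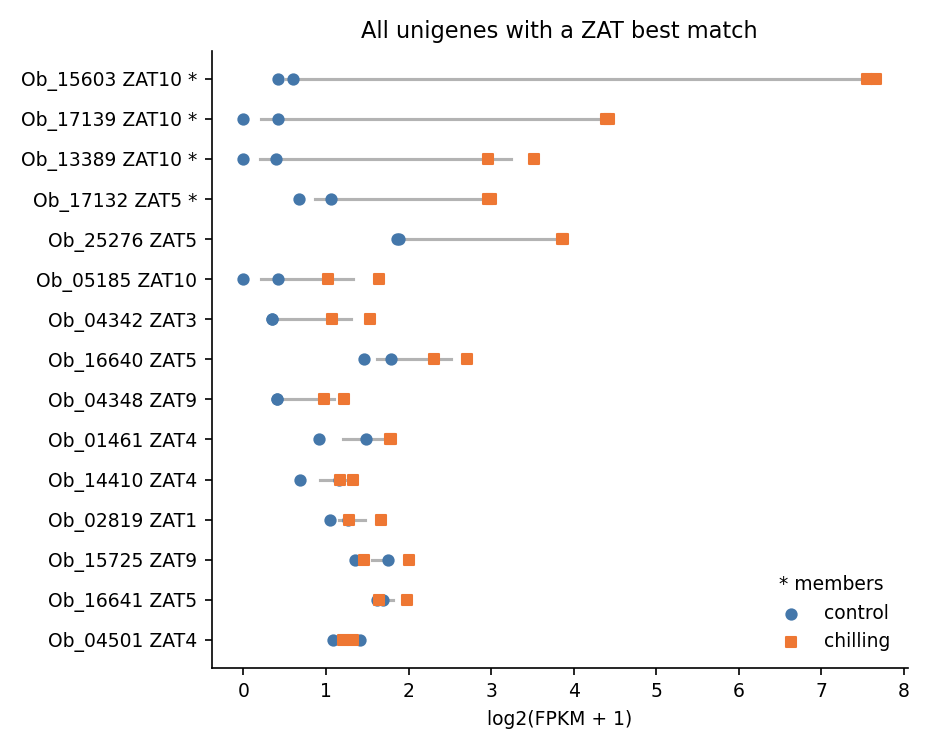
Level of all 15 unigenes with a ZAT best match in each library, as log2(FPKM + 1), with circles for control and squares for chilling libraries, a grey line between the group means and an asterisk at the 4 picked unigenes. The asterisked unigenes and Ob_25276 (FPKM of 13.65 and 13.46 after chilling) differ most on this scale. In the lower rows control and chilling points lie closer, and they overlap in 3 of these rows.

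The unigenes most like each of the 4 over the libraries were found by Euclidean distance in log2(FPKM + 1) over the 4 libraries, which reflects level and difference together. For Ob_15603 the nearest 5 with a Swiss-Prot name are matches to the calcium-binding proteins PBP1, CML38 and CML45, to the transcription factor WRKY53 and to the putative nuclease HARBI1, at distances from 1.36 to 1.69. The PBP1 match, Ob_12222, had an FPKM of 1.23 and 1.2 in the control and of 322.16 and 316.61 after chilling. Few unigenes share this range, and the distances are the longest among the 4.

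For Ob_17139 the nearest are matches to germin-like protein 2-3, the abscisic acid 8'-hydroxylase CYP707A1, the alternative oxidase AOX3, the cytochrome P450 CYP76A1 and again CML38, at distances from 0.50 to 0.74. The CYP707A1 match, Ob_15547, had an FPKM of 14.77 and 17.92 after chilling, and the table lists 0 for it in the control. The nearest to Ob_13389 are WRKY26, the receptor-like kinase CCR4, GATL10, the uncharacterized protein At1g04910 and DREB1C, at distances from 0.35 to 0.53. Those nearest to Ob_17132, all within 0.36, match the transporter NPF7.3, the exocyst subunit EXO70B1, the proteins At1g65750 and PCMP-H85, and an uncharacterized protein of a slime mould. None of the 4 is among the nearest 5 of another, and the distances between them run from 1.24 to 6.56.

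The study places Ob_13389 and Ob_17132 in its reconstruction of the CBF pathway, in which CBF factors switch on COR genes in the cold, ICE1 activates and MYB15 represses CBF genes, and the ligases HOS1 and SIZ1 act on ICE1. The list used here holds the 33 unigenes that are printed with it, fewer than the total that the text of the study gives. It was made from these samples, so its counts give no independent support for any direction. Without the 2 picked ZAT unigenes, 26 were tested, of which 5 were called higher and 6 lower, beside 11.9% and 13.8% of all tested unigenes. Their median difference was 0.17 on the log2(FPKM + 1) scale. Leaving out any 1 of the 4 libraries left 3 or 4 higher and 1 or 2 lower calls in the whole list of 28 tested, which had 7 and 6 with the picked unigenes included.

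Of the 6 unigenes listed as CBF, 4 were tested, of which 1 rose and 2 fell, beside 11.9% and 13.8% of all tested unigenes. The one that rose, Ob_29030, had an FPKM of 42.71 and 39.55 in the control and of 211.72 and 218.64 after chilling (2.36 on the log2(FPKM + 1) scale, limma, adjusted p = 7.7e-08), and its best Swiss-Prot match is RAV1. Those that fell are Ob_17034, from an FPKM of 19.73 and 18.92 to 7.10 and 5.45, and Ob_16900, from 1.66 and 2.86 to a listing at 0 in both chilling libraries. Their best matches are ERF008 and ERF023, members of the same AP2/ERF superfamily as the CBF factors but not CBF proteins. Ob_16900 passed the minimum mean FPKM only through its control values, so its values are a description.

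A search of the annotation for DREB1, the other name of the CBF proteins, was added after values had been seen and found 2 unigenes. Ob_15399, a DREB1C match outside the list of the study, is listed at 0 and at an FPKM of 0.23 in the control and was at 10.18 and 10.03 after chilling, a difference of 3.32 on the log2(FPKM + 1) scale. It is among the nearest 5 of Ob_13389 and passed the minimum only through its chilling values, so these values are a description. DREB1C is CBF2 in *Arabidopsis*. Ob_07111, the DREB1F match, is listed at 0 in the control and was at 0.72 and 1.42 after chilling, too low to be tested.

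The products of the 8 COR unigenes include dehydrins that protect cells under cold and water loss. Of these unigenes 2 rose and 3 fell, beside 11.9% and 13.8% of all tested unigenes. The ERD14 match Ob_11797 rose from an FPKM of 2.07 and 1.69 to 4.55 and 4.48. The KIN2 match Ob_29616 rose from an FPKM of 1.85 and 2.43 to 4.39 and 5.87. Both thus stayed at low levels, and the study states that chilling induced no COR unigene substantially. The most abundant of the 8, Ob_29046, was not called. It had an FPKM of 177.38 and 175.3 in the control and of 195.61 and 192.62 after chilling. The falls were in Ob_09195 by 2.53, Ob_10639 by 2.13 and Ob_16474 by 1.21 on the log2(FPKM + 1) scale. The ICE1 list holds 2 unigenes, of which Ob_11817, a bHLH93 match, fell from an FPKM of 3.44 and 3.82 to 0.47 and 0.23.

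Of 10 unigenes listed as MYB15, 7 were tested, and 2 were called higher and 0 lower, beside 11.9% and 13.8% of all tested unigenes. Both that were called passed the minimum mean FPKM only through their chilling values, so their values are a description. Ob_07479, a MYB44 match, had an FPKM of 6.01 and 5.56 after chilling and a listing at 0 in each control library. Ob_08721, a MYB48 match, was at an FPKM of 0.26 in both control libraries and at 3.97 and 4.70 after chilling. The HOS1 unigene and the 4 SIZ1 unigenes were not called. For HOS1 (Ob_33354) and the SIZ1 match Ob_35232 the adjusted p from limma was 0.0066 and 0.0019, but the ratios of mean FPKM were only 1.14 and 1.29.

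Upstream of ZAT10 in *Arabidopsis* stand MAP kinases, of which MPK3 can phosphorylate the protein. Of 75 tested MAP kinase unigenes, of 89 annotated to any step of the cascade, 16 were called higher and 8 lower, with a median difference of 0.11 on the log2(FPKM + 1) scale. These are 21.3% and 10.7%, beside 11.9% and 13.8% of all tested unigenes. The MPK3 match Ob_31782 showed the largest rise of them, from an FPKM of 3.10 and 2.71 to 39.20 and 40.70, or 3.39 on the log2(FPKM + 1) scale (limma, adjusted p = 3.9e-07). The MKK9 match Ob_28080 rose from an FPKM of 10.89 and 11.22 to 66.14 and 65.83. The NPK1 match Ob_13323 went from 0.34 in both control libraries to 4.78 and 5.74. Like some others called higher, Ob_13323 passed the minimum mean FPKM only through its chilling values, so its values are a description. The MAP kinase list was also chosen with these data known, so nothing is read from its shares.

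The largest falls among the MAP kinases were those of Ob_20673, an MPK19 match, by 1.62, Ob_20242, an MPK10 match, by 1.61, and Ob_40017, whose match is a human MAP kinase kinase kinase, by 1.39 on the log2(FPKM + 1) scale. Ob_40017 passed the minimum mean FPKM only through its control values, so its values are a description. The most abundant MAP kinase, the MPK9 match Ob_34848, fell from an FPKM of 93.55 and 94.28 to 37.45 and 38.91. Both higher and lower calls depended on the number of libraries, since without 1 library the list held 4 to 7 higher and 4 or 5 lower calls.

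Factors that respond within the first hours of cold in *Arabidopsis*, other than CBF and ZAT proteins, held 30 tested unigenes of 31, of which 12 rose and 5 fell, with a median difference of 0.24 on the log2(FPKM + 1) scale. Of these, 2 that rose, Ob_29030 and Ob_07479, also stand in the CBF pathway list above. The share that rose exceeds the 11.9% of all tested unigenes, but the list was chosen with these data known, so nothing is read from it. Some that rose, such as Ob_07479 and Ob_26052, passed the minimum mean FPKM only through their chilling values. Fewer calls in either direction were left without any 1 library. Ob_33171, a match to the CCCH zinc finger protein At2g40140, had an FPKM of 6.66 and 7.01 in the control and of 780.86 and 772.19 after chilling, a level above that of Ob_15603. Ob_26052, with the same match, went from an FPKM of 0.22 and 0.76 to 66.49 and 72.41, and the ERF5 match Ob_21486 from 1.13 and 0.83 to 70.14 and 71.67. The largest falls were those of the cytokinin response factors Ob_13633 by 2.40, Ob_20033 by 2.13 and Ob_17257 by 1.79 on the log2(FPKM + 1) scale.

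CAMTA factors are calmodulin-binding activators that help to switch on CBF2 and other early cold genes in *Arabidopsis*. Of 10 tested unigenes of 14, 2 rose and 1 fell, and under rescaling to TPM, which gives every library the same total, 5 rose and 1 fell. With so few unigenes these counts lie near the 11.9% and 13.8% of all tested unigenes. The CAMTA4 match Ob_34605 went from an FPKM of 15.62 and 16.18 to 33.53 and 33.29, and the CAMTA3 match Ob_19271 from 7.30 and 6.48 to 14.26 and 14.76. Ob_38489, a CAMTA1 match, fell by 1.14 on the log2(FPKM + 1) scale, a call that was lost without either chilling library. It passed the minimum mean FPKM only through its control values, so its values are a description. Only 1 rise was left without the first control library or either chilling library. The list had a median difference of 0.70, beside -0.0043 over all tested unigenes. Its most abundant unigene, Ob_36031, another CAMTA1 match, had an FPKM of 27.04 and 29.49 in the control and of 46.82 and 49.08 after chilling and was not called.

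Other plant C2H2 zinc finger factors, which share the fold with ZAT proteins and act mostly in development, held 33 tested unigenes of 35, of which 4 rose and 3 fell, or 7 and 1 under rescaling to TPM. The rises were led by Ob_11257, a match to TRANSPARENT TESTA 1 of the seed coat, by 1.73, Ob_25237, a JACKDAW match, by 1.59, and Ob_26065, a ZFP4 match, by 1.49 on the log2(FPKM + 1) scale. Ob_26065 had an FPKM of 20.57 and 20.84 in the control and of 58.96 and 60.61 after chilling. Ob_11257 was at an FPKM of 0.63 and 0.46 in the control and of 3.67 and 4.57 after chilling. Like Ob_10252, a MAGPIE match that also rose, it passed the minimum mean FPKM only through its chilling values. The values of both are a description. Of 3 ZFP8 matches 2 fell, Ob_13507 from an FPKM of 8.51 and 8.36 to a listing at 0 in both chilling libraries, and Ob_21332 from 9.07 and 8.63 to 3.57 and 4.25. The third, Ob_21333, was the most abundant of them, at an FPKM of 11.55 and 13.95 in the control and of 12.95 and 15.02 after chilling, which overlap. Ob_11706, a match to JAGGED, fell by 0.76 on the log2(FPKM + 1) scale, and the median of the list was 0.31. The share of this list called higher lies near the 11.9% of all tested unigenes, and without any 1 library 1 call was left in each direction. The most abundant of them, the JACKDAW match Ob_32963, was at an FPKM of 55.94 and 58.24 in the control and of 76.57 and 74.34 after chilling and was not called.

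The list of co-repressors that EAR-motif proteins recruit also takes in Ninja-family proteins such as AFP3. It held 30 tested unigenes of 33, of which 1 rose and 3 fell, or 4 and 3 under rescaling to TPM. These are 3.33% and 10%, beside the 11.9% and 13.8% of all tested unigenes, and nothing is read from counts this small. The match that rose, Ob_17039, to a human histone deacetylase, went from an FPKM of 11.02 and 12.89 to 25.43 and 27.34. That call was lost without the first control or the first chilling library. Ob_17039 entered the list by the words of its match, at an expectation value of 5e-14. Whether it acts as a co-repressor was not tested. TOPLESS, the co-repressor itself, has 10 matches, of which 9 were tested and 1 was called. That one, Ob_32330, fell from an FPKM of 33.69 and 34.12 to 13.16 and 13.65, or by 1.28 on the log2(FPKM + 1) scale (limma). Another, Ob_24656, named after its values were seen, had an FPKM of 21.95 and 22.25 in the control and of 44.31 and 40.01 after chilling, with an adjusted p from limma of 3.4e-05 and a ratio of 1.91, just under the limit of 2. Ob_34706, an AFP3 match, fell by 1.26 and Ob_39582, a TOPLESS-related match, by 0.99 on that scale. The median of the list was 0.14, and the most abundant member, the SAP18 match Ob_14638, was not called.

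Scavengers of peroxide and superoxide, such as ascorbate peroxidases, which ZAT10 affects in *Arabidopsis*, held 29 tested unigenes of 30, with 1 that rose, 1 that fell and a median of -0.29, or 3 and 0 called under rescaling to TPM. Each call is 3.45% of the list, beside the 11.9% and 13.8% of all tested unigenes, and nothing is read from counts this small. The APX6 match Ob_19529 rose from an FPKM of 20.01 and 21.95 to 53.26 and 53.11. The superoxide dismutase match Ob_03309 fell from an FPKM of 9.91 and 9.47 to 5.17 and 4.29, a call that was lost without any 1 of the libraries. The most abundant scavenger, the APX1 match Ob_21472, was not called.

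**Figure D4:**
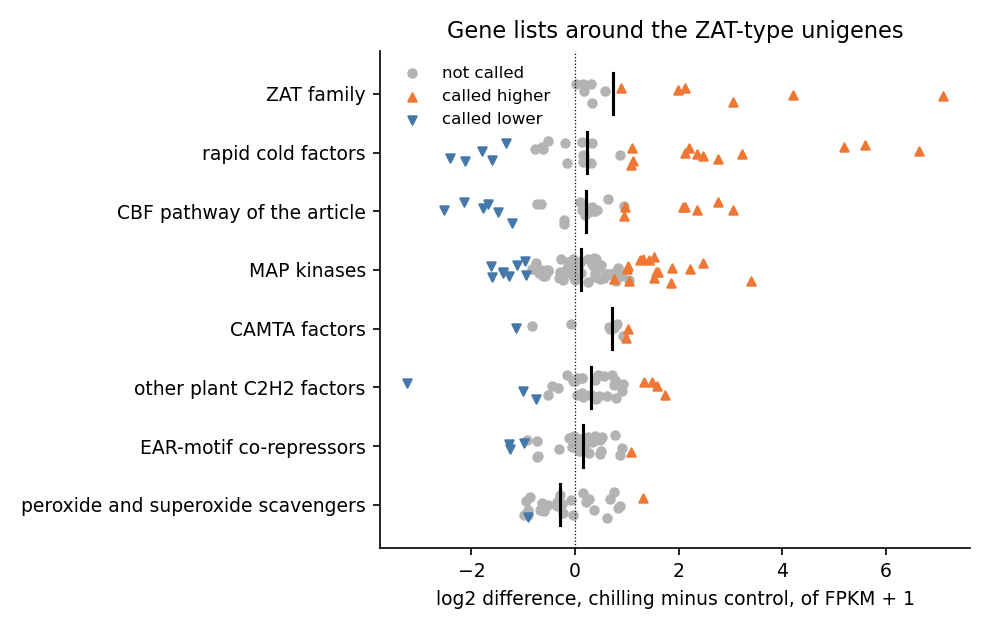
Difference of chilling minus control in log2(FPKM + 1) for each tested unigene of 8 gene lists, with triangles up for those called higher, triangles down for those called lower, grey points for those not called and a bar at the median of each list. The ZAT family holds 6 higher and 0 lower calls, 4 of the 6 being the picked unigenes. Of its 8 tested unigenes that were not picked, 2 were called higher and 0 lower. The other lists hold calls in both directions, and nothing is read from this contrast.

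Leaf tissue was checked with markers of its cell types. The summed FPKM ranged from 772255 to 875599 over the 4 libraries and was lower in the chilling libraries, and 31370 to 32815 unigenes per library had an FPKM of at least 1. Photosynthesis genes of the leaf mesophyll were present in all 4 libraries, and 21 of 26 tested were called lower, with 0 higher. Their summed FPKM was 50659 and 50503 in the control and 18773 and 18767 after chilling. Of the epidermis markers 0 of 5 were called higher and 1 lower, and of the guard cell markers 0 of 3 higher and 2 lower. Of the phloem markers 3 of 13 were called higher and 2 lower, and of the trichome markers 1 of 4 higher and 0 lower. Over all tested unigenes 11.9% were called higher and 13.8% lower. With 13 or fewer markers for each of these types, nothing is read from their counts. The summed FPKM of the phloem markers was 193.24 and 192.33 in the control and 574.88 and 571.92 after chilling. All 13 match APL, and none matches the other phloem markers looked for, SUC2, NAKR1 and SEOB, so the sum is not read as a phloem signal. Most of it after chilling is 1 unigene, Ob_26657, which was at an FPKM of 51.84 and 53.44 in the control and of 359.39 and 360.1 after chilling. The summed FPKM of the other markers went from 96.99 and 96.62 to 81.25 and 86.44 for the epidermis, from 36.97 and 36.43 to 19.2 and 17.39 for guard cells, and from 27.9 and 29.95 to 47.02 and 47.1 for trichomes. The part of these shifts in the values of the ZAT unigenes was not tested, and in bulk leaves a change in the number of cells of a type and a change in RNA per cell cannot be told apart.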

How the data were processed

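Leaf RNA from 2 control and 2 chilling samples was sequenced. After trimming and de novo assembly the authors kept 42816 unigenes, for which they computed FPKM with RSEM. The deposited FPKM values have 2 decimals, and the depth behind a value is not known from them. The authors' deposited annotation gives best BLASTX matches with other values such as expectation values (limit 1e-05). The deposited lists of regulated genes hold the authors' fold changes, p-values and FDR and were not used, nor were 8 per-sample columns that repeat FPKM there. The labels name edgeR, which needs counts and was not run.

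The 33036 unigenes whose FPKM averaged 1 or more over the libraries were transformed to log2(FPKM + 1) and fitted in R 4.3.3 with limma 3.58.1, using an intensity trend and Benjamini-Hochberg adjustment over all of them. The fit has 2 residual and 4.41 prior degrees of freedom. Nothing says that the samples of a group were separate beyond the naming as biological replicates, and p-values cover only the spread between them. Calls needed an adjusted p no larger than 0.01 and a 2-fold or greater ratio between mean FPKM values. Tested unigenes with a mean FPKM under 1 in either treatment passed the filter only through the other treatment. A call of such a unigene is a description. The procedure was tested on simulated data. Python 3.11.15 with pandas 2.3.3, numpy 2.4.6 and matplotlib 3.10.9 served for tables and figures.

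The 4 unigenes and all gene lists were chosen with earlier results of these data known. Lists are word patterns on the Swiss-Prot match, and the pattern for C2H2 factors was narrowed after its matches had been seen. Named are all ZAT unigenes, called unigenes of the CBF pathway list, up to 3 called unigenes per direction and the most abundant one in the other lists, and the 5 nearest to each of the 4 unigenes. Alternatives were an adjusted p of 0.05, a pseudocount of 0.1, TPM or median-ratio rescaling, a replicate block, no filter, no trend and the removal of each library.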

Additional observations from a re-analysis of the deposited data

How the results depend on the processing

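The 4 ZAT unigenes were picked for a higher FPKM after chilling and their groups do not overlap, so their direction could not turn in the alternatives. The log2 difference grew with a pseudocount of 0.1, to 8.54 for Ob_15603, 6.61 for Ob_17139, 5.40 for Ob_13389 and 2.95 for Ob_17132, since the control levels are low. Rescaling to TPM moved the median of all tested unigenes to 0.15 and the share of higher calls from 46.3% to 57.9%, and gave 7.41 for Ob_15603, 4.53 for Ob_17139 and 2.36 for Ob_17132. Under TPM the other plant C2H2 factors had 7 higher and 1 lower calls, the co-repressors 4 higher, the CAMTA factors 5 higher, and the scavengers 3 higher and 0 lower. At an adjusted p of 0.05 the co-repressors had 5 lower, the CAMTA factors 2 lower and the scavengers 3 lower calls.

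Without 1 library the log2 difference ranged from 7.004 to 7.19 for Ob_15603, 3.99 to 4.41 for Ob_17139, 2.77 to 3.33 for Ob_13389 and 1.92 to 2.31 for Ob_17132. The remaining library of that treatment is then assumed to vary like the other group, and calls fell in most lists, to 1242 to 1575 higher and 1586 to 1686 lower over all unigenes, 3 to 4 higher in the ZAT family, 1 higher and 1 lower in the other C2H2 factors, 3 to 4 higher and 1 to 2 lower in the CBF pathway list, 0 to 1 higher and 2 to 3 lower in the co-repressors, 4 to 7 higher and 4 to 5 lower in the MAP kinases, 1 to 2 higher and 0 to 1 lower in the CAMTA factors, 7 to 10 higher and 2 to 3 lower in the rapid cold factors, and 0 lower in the scavengers. The labels number the replicates without saying that a number pairs libraries, the deviations of same-numbered libraries had a correlation of 0.0076 across unigenes, and with the replicate block 6 ZAT unigenes were called higher. Precision is limited by 2 libraries per treatment and, at an FPKM under 1, by few reads.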
